A study of Mus musculus with 12 samples.

Results

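Oxidative phosphorylation makes most of the ATP of a neuron. Complexes I to IV of the inner mitochondrial membrane pass electrons from NADH and succinate to oxygen, and complexes I, III and IV pump protons. Complex V, the ATP synthase, uses the proton gradient to make ATP. Complex II is encoded in the nucleus alone, while complexes I, III, IV and V combine nuclear subunits with a few that mitochondrial DNA encodes. The nuclear genes of these subunits were followed here through the brains of stressed and unstressed mice, with and without krill oil.

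The members are the genes whose symbol starts with Nduf and a subunit letter and number, Uqcr, Cox4 to Cox8 with a letter a to c, or Atp5, or is Sdha, Sdhb, Sdhc or Sdhd. Names with "-ps" were left out, and a mean FPKM (fragments scaled to exon length and library depth) of at least 1 over the 12 libraries was required. Of 55385 genes in the table, 97 names matched, 10 carried "-ps" and 4 had a mean FPKM under 1, which left 83 members. Complex I holds 37 of them, complex II 4, complex III 8, complex IV 17 and complex V 17. The members just inside the limit were Cox6b2 (mean FPKM 1.53) and Cox8b (1.54), and Cox7b2 (0.364), Ndufa11b (0.032), Cox8c and a second gene named Atp5o (both listed at 0.0001) lay outside. The rule used no difference between groups, and both Cox6b2 and Cox8b were highest in C_O72 and MS_W95. Cox8b is a member only through these 2 libraries, as its mean FPKM over the other 10 was under 1.

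The RNA came from brains of male wild-type mice, labelled C57/BL6J and named C57BL/6J in the study's methods, that were 8 weeks old at purchase, 3 in each of 4 groups. The C_W mice were unstressed and given water, the C_O mice were unstressed and given krill oil, the MS_W mice went through chronic unpredicted mild stress (CUMS) and were given water, and the MS_O mice went through CUMS and were given krill oil. CUMS lasted 4 weeks, and krill oil was given into the stomach at 200 mg/kg per day for 5 weeks. Each mouse gave 1 poly(A) library, and a name such as C_O72 joins the group to the number of the mouse. A fall in the number of cells of a type and a fall in RNA per cell cannot be told apart in such bulk libraries. A log2 fold change (log2FC) is a difference between group means of log2(FPKM + 1), and limma tested it in a single model of the 4 groups, over the 21393 genes whose mean FPKM reached 0.1 and with Benjamini-Hochberg adjustment across all of them. An exact two-sided permutation test of 3 mice against 3 cannot give a p below 0.1.

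The estimated counts summed to between 50912906 and 75678721 per library, and those of the C_W libraries (69768244 to 75678721) were all above those of the MS_W libraries (51748181 to 61608502), so depth and group cannot be told apart in MS_W vs. C_W. The tissue was labelled brain, and the study's methods call it the whole brain of mice perfused with saline. There the FPKM of 5 neuronal markers summed to between 723 and 988, but Pcp2 and Gabra6, which mark Purkinje cells and granule cells of the cerebellum, were at most at an FPKM of 0.212 and 0.129 in 10 libraries. In C_O72 they were at 31.3 and 23.9, and in MS_W95 at 114 and 91.3. The summed FPKM of 5 hindbrain markers, 4 of them Hox genes, was 18.7 in C_O72, 7.78 in MS_W95 and at most 0.0688 elsewhere. These 2 libraries are therefore named wherever they touch a result, and each comparison is also given for the other 10 libraries. The 4 hypothalamic peptide genes summed to 92.1 and 93.8 in MS_W31 and MS_W75, to 12.9 in C_O30, and to at most 2.94 in the other libraries.

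Symbols of 67 members matched a RefSeq promoter on build GRCm38.p6 (72 windows, 250 bases before to 50 bases after the start), and 16 members had no match. The 10-base motif of nuclear respiratory factor 1 (NRF1) was in 25% of the member windows and in 4.6% of all 32851 windows, with both strands searched in this and the other motifs. CCGGAAG, a motif of Ets factors such as GABP, was in 23.6% against 8.86%, and AAGATGGC, a motif of YY1, in 13.9% against 2.75%. AAGGTCA, a site of the estrogen-related receptors, was in 11.1% against 4.72%, and the TATA box letters TATAAA in 11.1% against 13.6%. Of the 18 windows with the NRF1 letters, 8 were of complex I, 2 of complex II, 1 of complex III, 1 of complex IV and 6 of complex V. The stretches below show the NRF1 motif in capitals before the start of the most abundant member of each complex that has them there (complex III has none), and of Ndufs5, an accessory subunit of complex I that is described further on. They lie at chr2:36049344-36049383 (Ndufa8), chr13:74350241-74350280 (Sdha), chr5:115349051-115349090 (Cox6a1), chr5:108434425-108434464 (Atp5k) and chr4:123718260-123718299 (Ndufs5), all on the minus strand.
Ndufa8: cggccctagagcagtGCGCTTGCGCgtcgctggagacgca
Sdha: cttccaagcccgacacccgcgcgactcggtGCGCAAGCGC
Cox6a1: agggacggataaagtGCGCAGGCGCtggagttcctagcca
Atp5k: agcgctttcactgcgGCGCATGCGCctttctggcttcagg
Ndufs5: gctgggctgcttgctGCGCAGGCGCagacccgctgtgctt

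The 3 members described further on for single values had none of these 5 motifs in the 60 bases before the RefSeq start, shown next, and Ndufa12 and Cox7a2l had none in the whole window. Ndufa12 is an accessory subunit of complex I, and Cox8b is the heart and muscle copy of a complex IV subunit. Cox7a2l is described as a factor by which complexes III and IV join into supercomplexes, a role not tested in this strain here. The stretches lie at chr10:94198975-94199034 on the plus strand for Ndufa12, and at chr17:83514334-83514393 for Cox7a2l and chr7:140900447-140900506 for Cox8b on the minus strand.
Ndufa12: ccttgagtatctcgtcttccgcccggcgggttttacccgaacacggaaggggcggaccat
Cox7a2l: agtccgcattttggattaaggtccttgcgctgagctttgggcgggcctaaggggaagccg
Cox8b: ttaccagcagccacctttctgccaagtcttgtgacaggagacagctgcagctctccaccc

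The members were among the most abundant transcripts of the brain. Their median FPKM was 56.2, against 2.38 for all tested genes, 68 of the 83 lay above the 90th percentile, and 76 had a mean FPKM of at least 10. They lie on 19 chromosomes, with at most 9 on one, and they are short, with a median coding length of 390 bases against 1353 and a median of 4 exons against 8 in all tested genes. In the annotation of the table, 70 carried the term for the mitochondrial inner membrane and 63 the pathway oxidative phosphorylation, and 20 had no pathway entry. Ndufb4c, Ndufs6b and Cox6c2 are annotated as processed pseudogenes, whose reads may be shared with Ndufb4, Ndufs6 and Cox6c, so the split of values within these pairs is uncertain.

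In complex I, Ndufb9 (mean FPKM 128) and Ndufb11 (97.9), both accessory subunits, had the highest levels. Of the core subunits that bind flavin or iron-sulfur clusters, Ndufs1 was at 18.6, Ndufv1 at 36.4 and Ndufs7 at 37.3. Ndufs8 was at 47.8 and Ndufv2 at 62.1, and Ndufs3, another core subunit, was at 42.8. In complex II the flavoprotein Sdha was at 114 and the iron-sulfur protein Sdhb at 56.2, and the membrane anchors Sdhc and Sdhd were at 32.9 and 78.5. Uqcr10 (140) and Uqcrh (119) led complex III. Cox8a (422), Cox6a1 (354) and Cox6b1 (280), the copies that most tissues use, led complex IV, and the catalytic head subunits Atp5a1 (309) and Atp5b (284) led complex V.

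The length in the FPKM denominator shaped this order. In 98.5% to 98.6% of 5662 genes with an FPKM of at least 5, the estimated count equaled FPKM times the length of all annotated exons of the gene times a factor per library, within 1%. Of the members, 45 have an annotated transcript with a retained intron, which adds to that length. On the length of the principal coding transcript, an alternative chosen after the files were seen, the FPKM of 25 members was at least 2 times as high. The extreme was Atp5l, a small membrane subunit of complex V, which went from 16 to 190 (6443 against 544 bases), and Ndufb7 of complex I went from 15.1 to 110. Cox6c, a complex IV subunit, went from 38 to 184 and Atp5b from 284 to 629, which placed Atp5b above Cox8a (475). Of the complex I members that are not pseudogenes, Ndufb2 stayed lowest at 9.75, with 4371 bases in its principal transcript. Differences between groups are within 1 gene, where this length cancels except for the 1 added in log2(FPKM + 1), which weighs most on members with low FPKM.

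**Figure D1:**
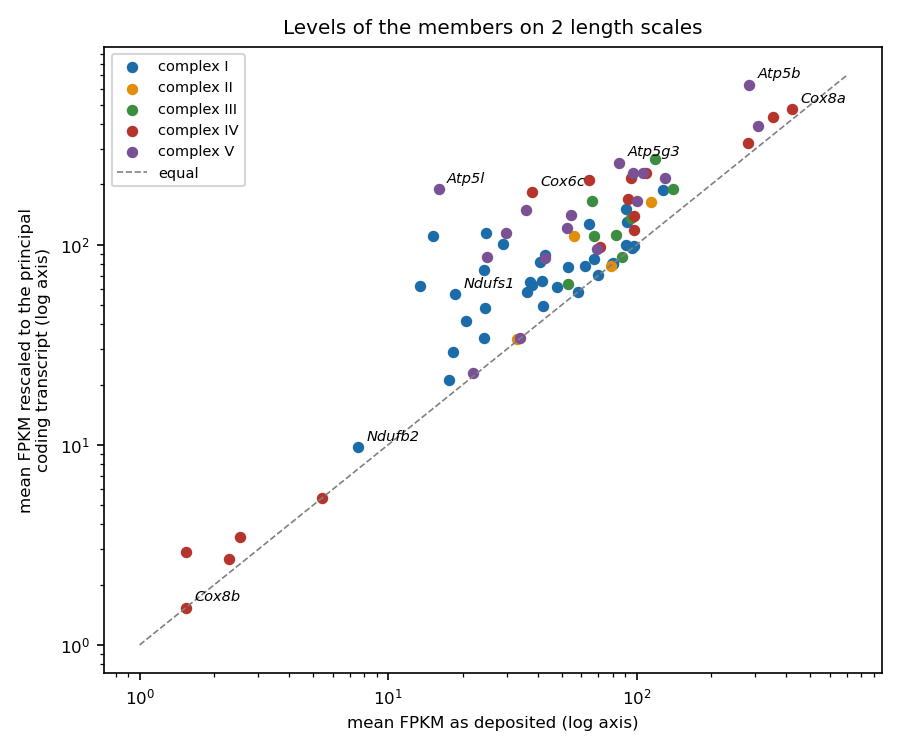
Mean FPKM of the 80 members with a coding transcript, as deposited (x axis) and rescaled to the length of the principal coding transcript (y axis), both on log axes, with 1 point per gene colored by complex and a dashed line of equality. Atp5l (16 against 190) and Cox6c (38 against 184) stand far above the line, and Cox8b (1.54 on both scales) lies on it.

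The genes with tissue-specific copies showed which copy the brain used. The FPKM of Cox6a1 was 354 against 5.42 for Cox6a2, the heart and skeletal muscle copy, Cox8a was at 422 against 1.54 for Cox8b, and Cox6b1 was at 280 against 1.53 for the testis copy Cox6b2. Cox7a2 (97.5) stood above the muscle copy Cox7a1 (2.53), Cox7b (97.6) above Cox7b2 (0.364), and Ndufa4 (95.4), which is a complex IV subunit despite its name, above Ndufa4l2 (2.3), a copy induced by hypoxia. On the length of the principal transcript the first copy of each pair was also the higher one where both have a rescaled value. The c-ring subunit of complex V, which 3 genes encode as the same mature protein, had its highest FPKM in Atp5g3 (85.1), then Atp5g2 (52.7) and Atp5g1 (21.9). The order of these 3 was the same in each of the 12 libraries.

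Most members varied little between libraries. The ratio of the highest to the lowest library was under 2 for 68 of the 83, with a median of 1.72. Over the 12 libraries, the median SD of log2(FPKM + 1) was 0.211 for the 76 members with a mean FPKM of at least 10 and 0.217 for the 4462 tested genes at that level. The same medians were 0.13 and 0.155 in the 10 libraries without C_O72 and MS_W95.

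C_O72 stood apart from the other libraries in all 5 complexes. Its estimated counts also had the lowest sum, 50912906, close to 51748181 in MS_W75, and the part of depth was not tested. The 83 members summed to an FPKM of 8071 in C_O72, to 5396 and 5463 in the other C_O mice, to between 5303 and 6074 in C_W, to between 5905 and 6341 in MS_O, and to 5794, 5967 and 6506 in MS_W31, MS_W75 and MS_W95. C_O72 held the highest value of 74 members (89.2%, against 18.7% of all tested genes) and lay above both other C_O mice for 81 members (97.6%, against 45.3% of all tested genes). The median difference of the members from those mice was 0.63 on the log2 scale, against 0.03 over all tested genes.

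The higher level of C_O72 was seen in each complex. The FPKM of Sdha was 155 in C_O72 against 96.9 to 145 in the other 11 libraries. Uqcrh was at 185 against 93.9 to 158, Cox6b1 at 414 against 240 to 297, and Atp5b at 394 against 242 to 324. Cox8a was an exception, at 418 in C_O72 within a range of 357 to 483 elsewhere. MS_W95 also lay above both other MS_W mice for 60 members (72.3%, against 44.8% of all tested genes), with a median difference of 0.16.

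The subunits that mitochondrial DNA encodes did not follow. The library score, which is the median over a list of log2(FPKM + 1) minus the mean of each gene, was 0.46 for the members in C_O72 and between -0.18 and 0.16 in the other 11 libraries. For the 13 mitochondrial transcripts it was -0.27 in C_O72, within a range of -0.33 to 0.28 elsewhere, and their summed FPKM was 37320 in C_O72 and 34660 to 47650 elsewhere. Other lists were also above their means in C_O72, with scores of 0.30 for 16 genes of the citric acid cycle and pyruvate dehydrogenase, 0.45 for 7 membrane carriers, 0.24 for 78 mitochondrial ribosomal proteins, 0.21 for 85 cytosolic ribosomal proteins and 0.19 for 47 assembly factors. The summed FPKM of 5 oligodendrocyte markers was 902 in C_O72 against 197 to 521 elsewhere, that of 5 astrocyte markers was 203 against 97.8 to 226, and that of 5 choroid plexus markers was 4818 against 4.99 to 1804. The part of these cell types and regions in the level of the members was not tested.

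**Figure D2:**
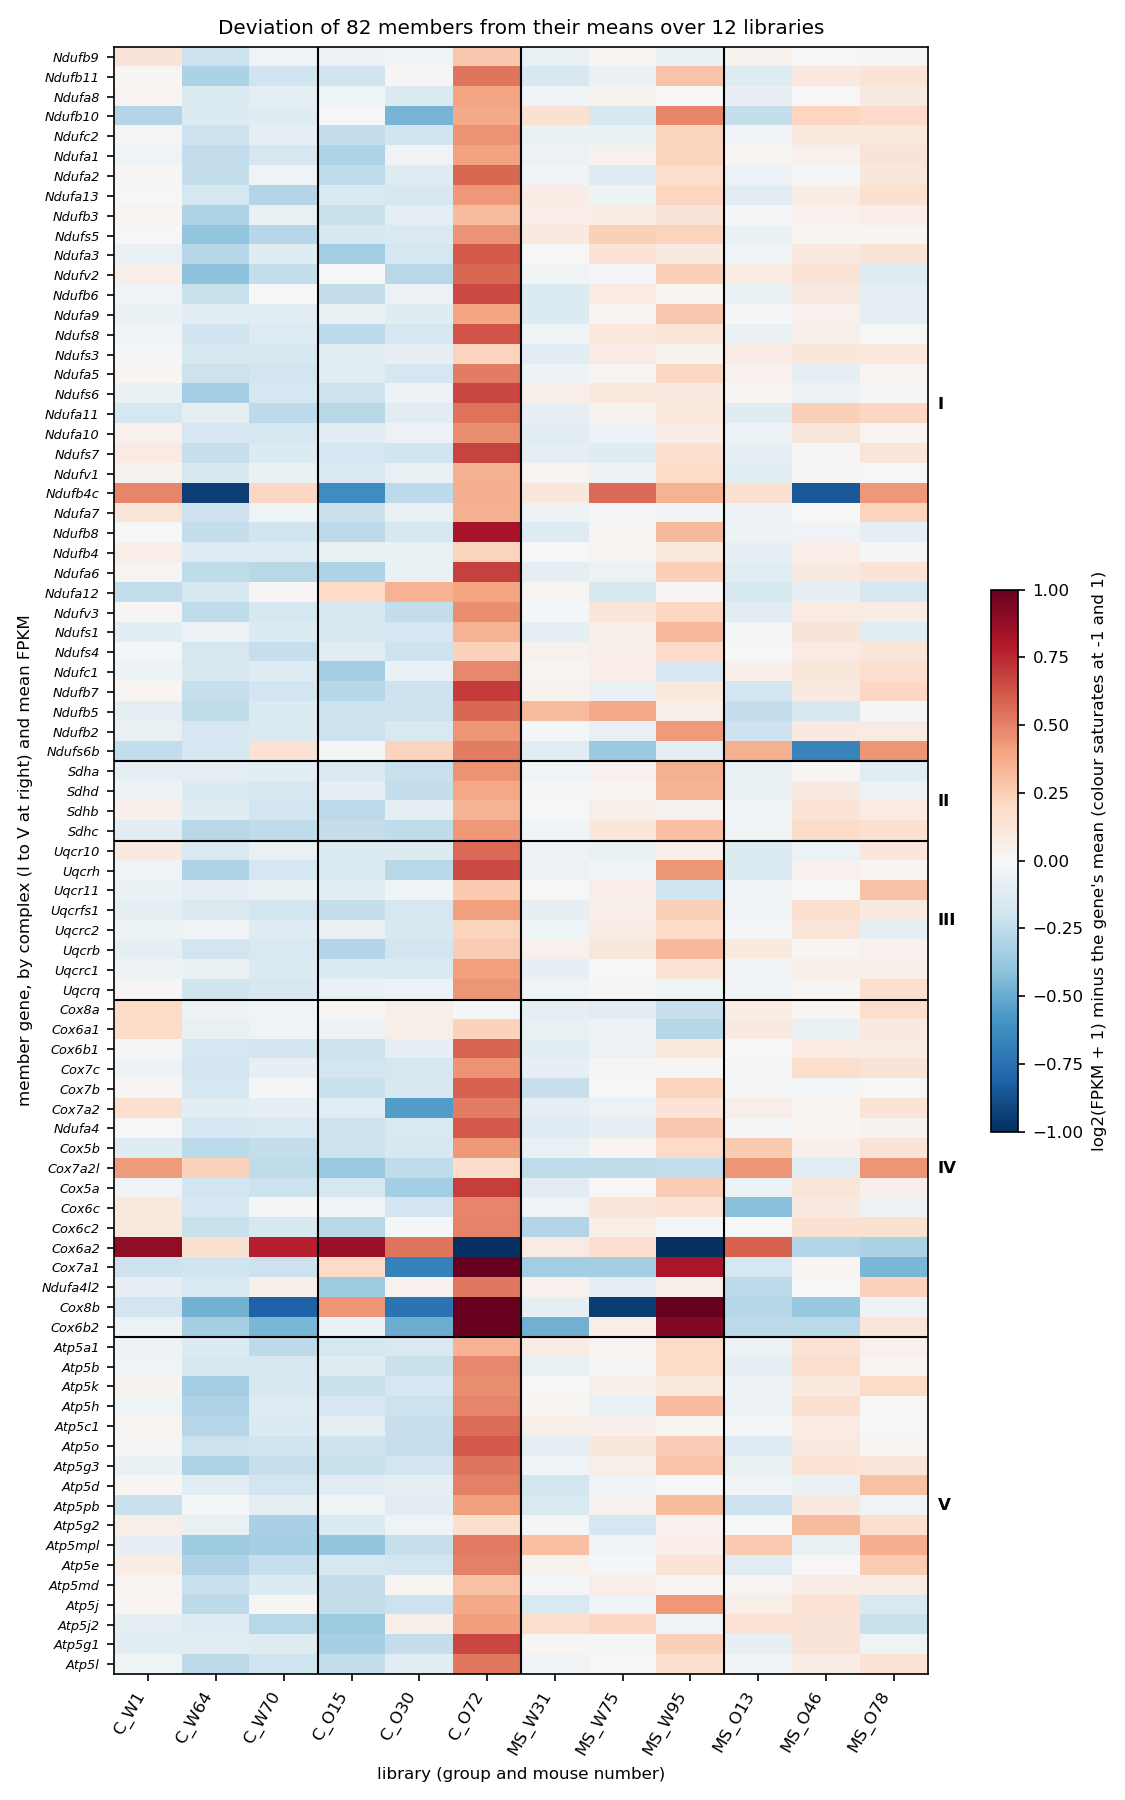
Deviation of each of 82 members (rows, by complex and mean FPKM) from its mean over the 12 libraries (columns, by group), as log2(FPKM + 1), with colors that saturate at -1 and 1. The C_O72 column is high for members of all 5 complexes, and Cox6a2, Cox7a1, Cox8b, Cox6b2 and Ndufb4c have patterns of their own.

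**Figure D3:**
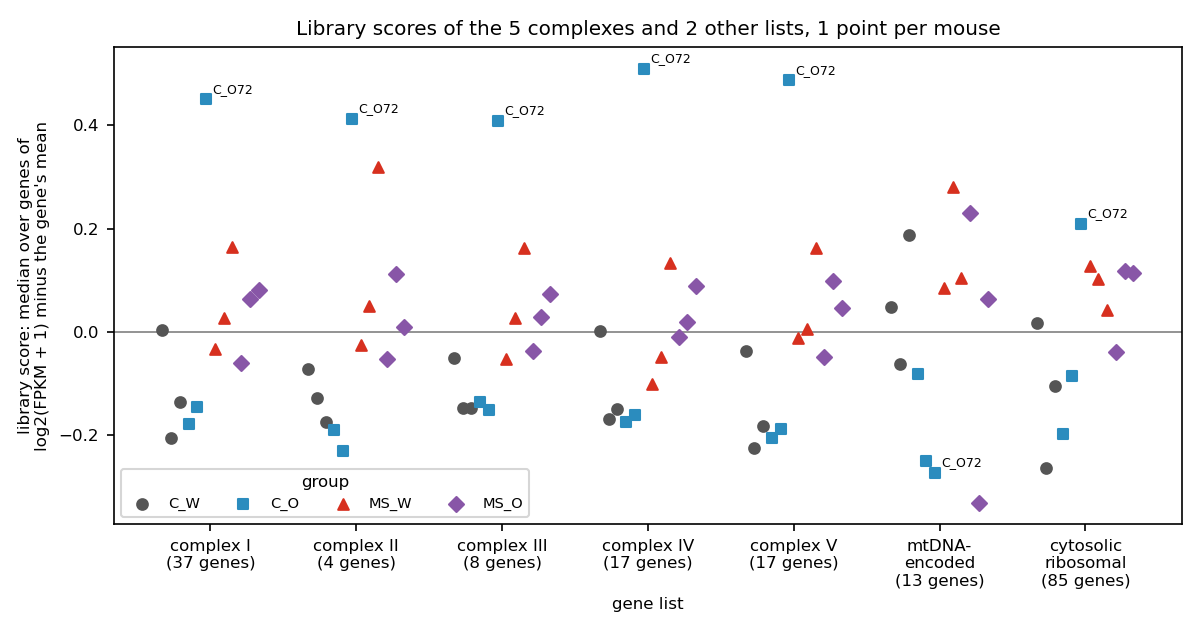
Library scores (y axis, log2 units) of the 5 complexes, the 13 mtDNA-encoded subunits and 85 cytosolic ribosomal protein genes (x axis), with 1 point per mouse and 1 shape and color per group. C_O72 is highest for each complex, with scores of 0.41 to 0.51, and is at -0.27 for the mtDNA-encoded subunits.

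The question of CUMS without krill oil is answered by MS_W vs. C_W. The nuclear subunit genes tended to be higher in MS_W, with 78 of 83 log2FC above 0 (62.1% of all tested genes were above 0). The median log2FC was 0.18 against 0.06 over all tested genes. The members moved together within a group, so their count is not a count of separate results. C_W1 lay above both other C_W mice for 72 members (86.7%, against 34.9% of all tested genes). The library score of the members was -0.18 to -0.01 in C_W and -0.04 to 0.16 in MS_W, so the groups overlapped. No member passed an adjusted p of 0.05 in limma (0.00467% of all tested genes did), in edgeR (0.00467%) or in DESeq2 (1.82%), and 1 had an unadjusted p under 0.05 (6.71% of all tested genes were higher and 3.79% lower at that p). Groups were without overlap in FPKM for 19 members higher in MS_W and 1 lower, Cox8a (16.3% and 8.22% of all tested genes). With libraries centred on their median, the median log2FC of the members was 0.09 with 62 above 0. The estimated counts in edgeR gave 0.09 with 61 above 0. The FPKM of the 5 neuronal markers summed to 723 to 760 in MS_W and to 912 to 988 in C_W. By log2FC, 3 of these markers were below 0 and 2 above. The 5 astrocyte markers summed to 133 to 226 in MS_W and to 97.8 to 117 in C_W, with 4 above 0 and 1 below. The part of these cell types in the level of the members was not tested.

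By complex, the median log2FC was 0.19 in complex I (36 of 37 above 0), 0.22 in complex II (4 of 4), 0.12 in complex III (8 of 8), 0.09 in complex IV (13 of 17) and 0.21 in complex V (17 of 17). Complex IV had the members farthest below 0, Cox6a2 at -1.004 and Cox7a2l at -0.38. The value of Cox6a2 leaned on MS_W95, at an FPKM of 1.04 against 4.88 in MS_W31 and 5.225 in MS_W75. Without MS_W95 its log2FC was -0.48. A 95% confidence interval reached a median of 0.39 to each side of the log2FC, so differences of the size of these medians were not detectable for single genes at 3 mice per group.

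The member with the smallest p was Ndufs5 (ENSMUSG00000028648, chr4:123712710-123718186, GRCm38), an accessory subunit of complex I. Its FPKM was 70.8, 78.4 and 77.3 in MS_W31, MS_W75 and MS_W95 and 66.5, 50.2 and 54.3 in C_W1, C_W64 and C_W70. All MS_W mice were above all C_W mice, and the mean ± SD was 75.5 ± 4.10 against 57.0 ± 8.46 (n = 3 each), with a log2FC of 0.41 (SE 0.16, limma, unadjusted p = 0.0312, adjusted p = 0.436). The highest value of all 12 was 90.8 in C_O72, and the MS_O mice lay at 63.4, 67.4 and 67.1.

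Without C_O72 and MS_W95, the median log2FC of MS_W vs. C_W was 0.09 with 67 of 83 above 0 (59.5% of all tested genes), and 9 members were higher at an unadjusted p under 0.05 (9.66% of all tested genes) and none lower (5.69%). By complex, the median there was 0.09 in complex I (34 of 37 above 0) and 0.12 in complex II (4 of 4). It was 0.10 in complex III (7 of 8) and 0.15 in complex V (15 of 17). Complex IV had a median of -0.03, with 7 of 17 above 0 and 10 below. In these 10 libraries 1 member passed the adjusted threshold (1.15% of all tested genes), Ndufb5, another accessory subunit of complex I, which is named after its values were seen. Its FPKM was 16.6 and 17.4 in MS_W31 and MS_W75, 13.7 in MS_W95 and 12.3, 10.9 and 11.9 in C_W. In MS_O it was 10.98, 11.69 and 12.97, in C_O15 and C_O30 it was 11.2 in each, and in C_O72 it was 20.02. The log2FC was 0.51 (SE 0.09, limma, adjusted p = 0.0377) in the 10 libraries and 0.41 (SE 0.19, adjusted p = 0.489) in all 12, and the adjusted p ranged from 0.0377 to 0.791 over the alternatives. MS_W31 and MS_W75, on which the call rests, are also the libraries with the high hypothalamic peptide genes, whose part in it was not tested.

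Krill oil without CUMS is addressed by C_O vs. C_W. Again 78 of 83 members were above 0 (50.4% of all tested genes), with a median log2FC of 0.16 against 0.00 over all tested genes, but this rested on C_O72. Without C_O72 and MS_W95 the median was -0.04, 20 of 83 were above 0 (45% of all tested genes), and 1 member was higher and 1 lower at an unadjusted p under 0.05 (1.84% and 2.22% of all tested genes). No member passed the adjusted threshold in limma (0% of all tested genes did), 1 member had an unadjusted p under 0.05 (1.51% of all tested genes were higher and 2.04% lower), and edgeR called none (0%) and DESeq2 1 (0.252%). The groups did not overlap for this 1 member, Ndufa12 (4.08% of all tested genes did not overlap with C_O higher, and 5.34% with C_O lower).

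Ndufa12 (ENSMUSG00000020022, chr10:94198720-94221443) differed between C_O and the other groups in each of the 3 C_O mice. Its FPKM was 27.7, 30.7 and 31.8 in C_O15, C_O30 and C_O72 and 20.05, 21.1 and 24.1 in C_W. It was 24.5, 21.3 and 24.2 in MS_W and 21.3, 22.6 and 21.3 in MS_O. Each C_O mouse was above each of the other 9. The log2FC of C_O vs. C_W was 0.45 (SE 0.10, limma, unadjusted p = 0.000982, adjusted p = 0.908), and without C_O72 and MS_W95 it was 0.41. DESeq2 on the estimated counts gave an adjusted p of 0.00773, and over the alternatives the adjusted p ranged from 0.00773 to 1.

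For CUMS under krill oil, MS_O vs. C_O, the median log2FC of the members was -0.03 against 0.03 over all tested genes, and 33 of 83 were above 0 (56.7% of all tested genes). No member passed the adjusted threshold in limma (0.00467% of all tested genes did), and 1 had an unadjusted p under 0.05 (6.69% of all tested genes were higher and 2.18% lower). That was Ndufa12, lower in MS_O (21.7 ± 0.734 against 30.1 ± 2.10, n = 3 each), with a log2FC of -0.45 (limma, adjusted p = 0.479). It was the 1 member without overlap (3.29% of all tested genes did not overlap with MS_O lower, and 8.9% with MS_O higher). DESeq2 called it at an adjusted p of 0.000491 (0.804% of all tested genes were called), edgeR called no member (0.00467%), and the alternatives ranged from that to 0.957. Both of its differences share the C_O mice.

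Leaving out C_O72 turned the direction of this comparison. Without C_O72 and MS_W95 the median log2FC of MS_O vs. C_O was 0.19 against 0.05 over all tested genes, 78 of 83 members were above 0 (61.2% of all tested genes), and 25 members were higher at an unadjusted p under 0.05 (9.62% of all tested genes), with 1 lower (3.99%). None of them passed the adjusted threshold (0.014% of all tested genes did), the lowest adjusted p in limma being 0.335. The higher members came from all 5 complexes, 8 from complex I, 2 from complex II, 3 from complex III, 7 from complex IV and 5 from complex V. The smallest p was that of Uqcrb, a subunit of complex III, with a log2FC of 0.29 (limma, adjusted p = 0.335) and an FPKM of 71.6, 67.6 and 68.8 in MS_O, 54.4 and 58.8 in C_O15 and C_O30, and 79.8 in C_O72. These fits hold only 2 C_O mice.

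**Figure D4:**
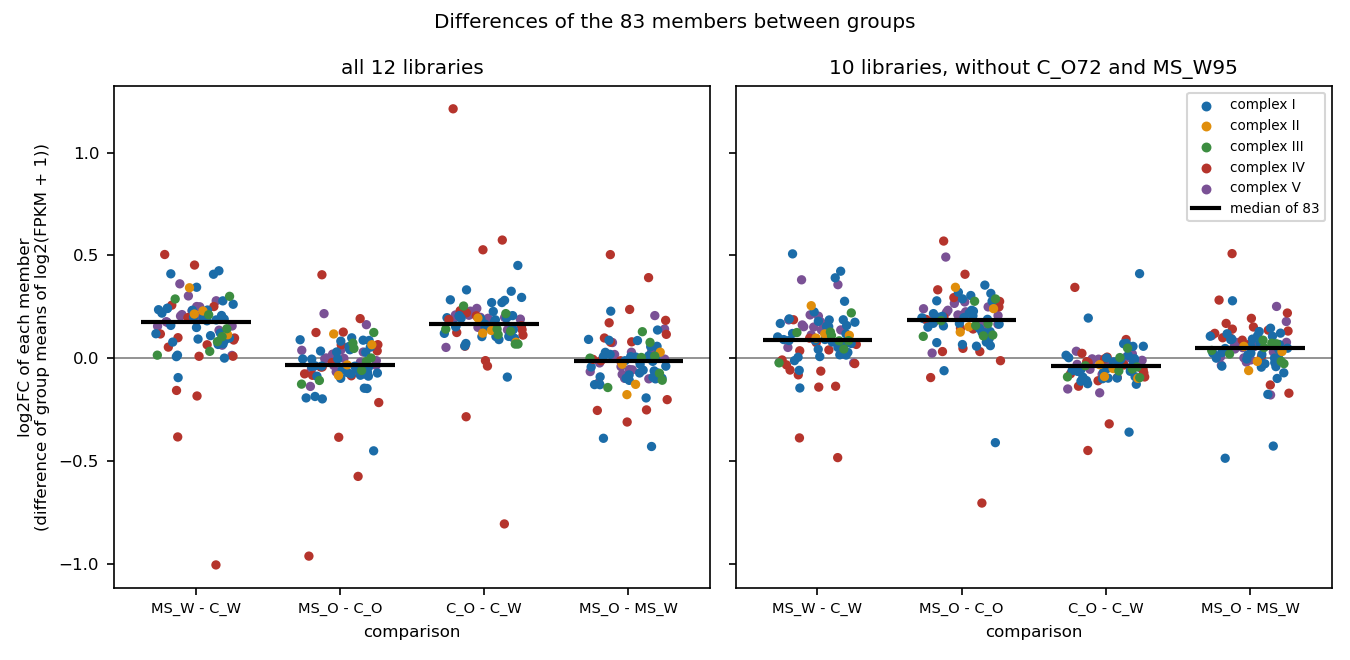
log2FC of each member (points, colored by complex) in the 4 comparisons (x axis), for all 12 libraries (left) and the 10 without C_O72 and MS_W95 (right), with the median of the 83 members as a black bar. The bar of C_O - C_W moves from 0.16 to -0.04 and that of MS_O - C_O from -0.03 to 0.19.

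Krill oil under CUMS, MS_O vs. MS_W, gave a median log2FC of the members of -0.01 against -0.02 over all tested genes. There 37 of 83 were above 0 (46.3% of all tested genes), and the sign of the median turned with libraries centred on their median (0.01) and with edgeR (0.02). No member passed the adjusted threshold in limma (0.00467% of all tested genes did), and 1 had an unadjusted p under 0.05 (2.63% of all tested genes were higher and 3.46% lower). Neither edgeR (0.00467%) nor DESeq2 (0.369%) called a member. The groups did not overlap for Cox7a2l and Cox8a, higher in MS_O (4.64% of all tested genes), and for Ndufb3, Ndufb5, Ndufs5 and Ndufs6, lower in MS_O (7.66% of all tested genes). The FPKM of Cox8a was 442, 427 and 475 in MS_O and 392, 390 and 357 in MS_W, with a log2FC of 0.24 (limma, adjusted p = 0.819).

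Cox7a2l (ENSMUSG00000024248, chr17:83501918-83517330) had the smallest p and lay at 2 separate levels. Its FPKM was 94.7 in both MS_O13 and MS_O78, 93.7 in C_W1, 81.9 in C_W64 and 78.8 in C_O72. In the other 7 libraries it was between 53.5 and 64.4, with 58.2, 58.2 and 58.8 in MS_W, 53.5 and 58.1 in C_O15 and C_O30, 58.1 in C_W70 and 64.4 in MS_O46. The gap between the levels ran through C_W, C_O and MS_O, and the MS_W mice were all at the lower level. The log2FC of MS_O vs. MS_W was 0.50 (SE 0.21, limma, unadjusted p = 0.0371, adjusted p = 0.814), and the adjusted p ranged from 0.483 to 1 over the alternatives.

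In the 10 libraries, 62 of 83 members were above 0 in MS_O vs. MS_W (49.8% of all tested genes), with a median log2FC of 0.05. At an unadjusted p under 0.05, Cox7a2l was higher (3.28% of all tested genes were) and Ndufb5 lower (5.27%), and neither passed the adjusted threshold (0.271% of all tested genes did). For Ndufb5 the log2FC was -0.49 (limma, adjusted p = 0.0889).

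**Figure D5:**
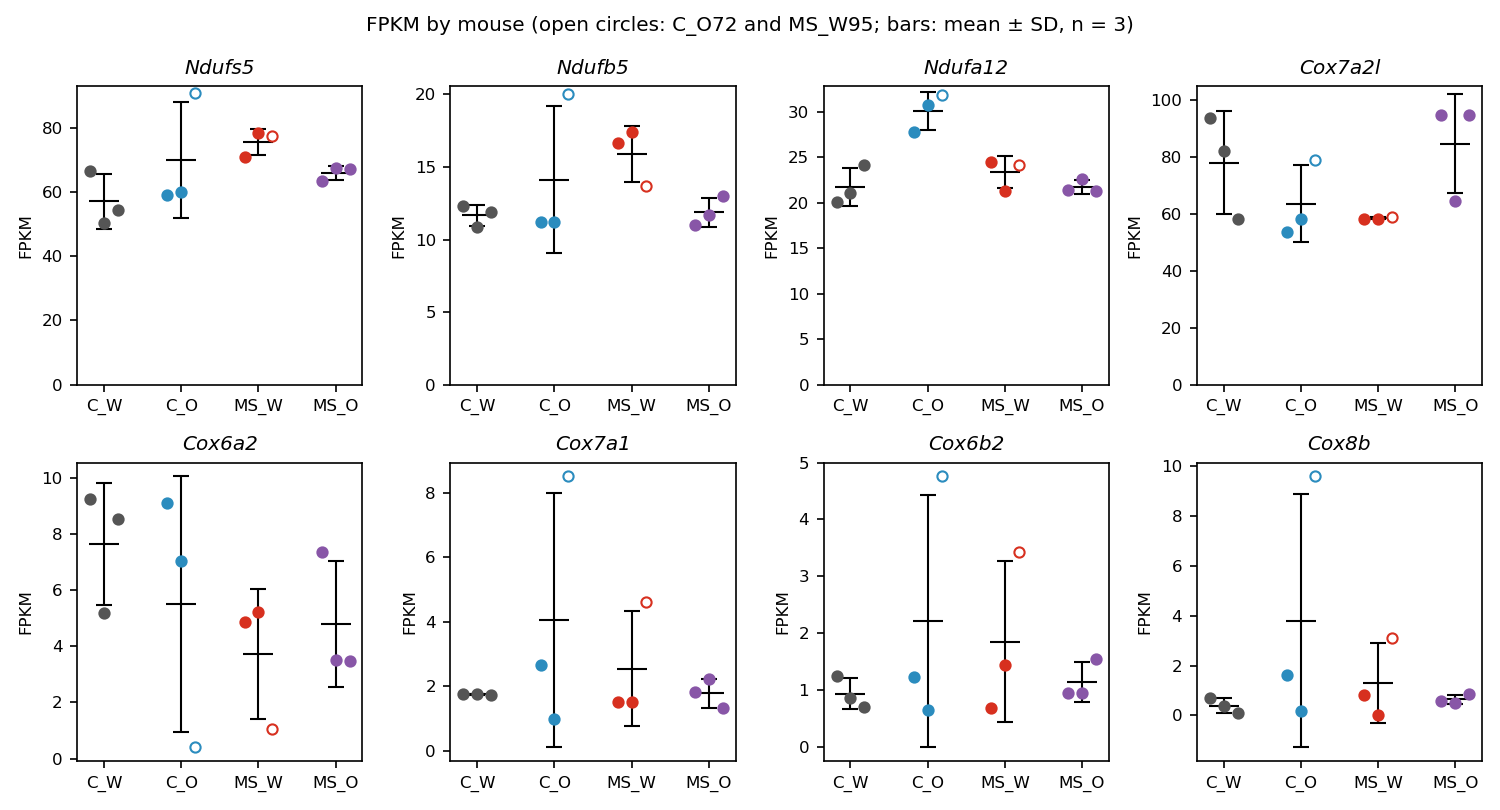
FPKM (y axis) of 8 members in the 4 groups (x axis), with 1 circle per mouse, open for C_O72 and MS_W95, and bars for mean ± SD of 3 mice. Ndufa12 is at 27.7 to 31.8 in C_O and at most 24.5 elsewhere, Cox7a2l lies at 2 levels within 3 of the groups, and the lower row has its extreme values in the open circles.

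The interaction of CUMS and krill oil asks whether the difference by CUMS was the same with and without krill oil. The members had a median of -0.18 against -0.02 over all tested genes, and 9 of 83 were above 0 (47.4% of all tested genes). Without C_O72 and MS_W95 the median was 0.08, 70 were above 0 (52.7% of all tested genes), 2 were higher and 2 lower at an unadjusted p under 0.05 (3.19% and 4.32%), and none passed the adjusted threshold (0.145%). No member passed the adjusted threshold in limma or edgeR (0% of all tested genes in each). An unadjusted p under 0.05 was reached by Ndufa12, at -0.55 (SE 0.14, limma, unadjusted p = 0.00279, adjusted p = 0.597), and by Cox7a2l, at 0.79 (SE 0.30, limma, unadjusted p = 0.0239, adjusted p = 0.665), while 3.6% of all tested genes were higher and 3.63% lower at that p. DESeq2 called Ndufa12 at an adjusted p of 0.0381 (0.706% of all tested genes were called), and its alternatives ranged from that to 0.843.

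The largest spread was in the tissue-specific copies of complex IV, and it lay between libraries of the same group. Cox8b reached a mean FPKM of 1 only through C_O72 and MS_W95, so its high values there follow in part from the rule. Cox8b was at an FPKM of 9.61 in C_O72 and 3.10 in MS_W95, at 1.63 in C_O15 and at most 0.862 in the other 9 libraries, with 198, 78 and 47 estimated counts in the first 3 and at most 22 elsewhere. Cox7a1 was at 8.51 and 4.61 in C_O72 and MS_W95 and at 0.986 to 2.65 in the others. The testis copy Cox6b2 was at 4.76 and 3.43 in the same libraries and at 0.649 to 1.54 in the others.

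Cox6a2 was the reverse of these. Its FPKM was 0.396 in C_O72 and 1.04 in MS_W95, and 3.47 to 9.26 in the other 10, where it was highest in C_W1 (9.26), C_O15 (9.09) and C_W70 (8.52). The difference of C_O72 from the other C_O mice was -2.69 for Cox6a2 and 2.60 for Cox8b on the log2 scale. The summed FPKM of 5 skeletal muscle markers was 0.967 in C_O72 and 2.71 in MS_W95 and 4.28 to 7.51 elsewhere, with Acta1 at 0.364 and 1.24 against 4.17 to 6.77. Of the other muscle markers, Tnnt3 was highest in these libraries, at 0.447 and 0.909 against at most 0.319, and Ckm was at most at 0.262 in any library. The brown fat marker Cidea was at 5.58 and 7.78 against 0.993 to 3.00 elsewhere, while Ucp1, which defines brown fat, was at most at 0.102.

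The 4 markers of parvalbumin interneurons were split in C_O72 and MS_W95. Pvalb was at 294 and 396 against 9.73 to 70.2 elsewhere, and the potassium channel gene Kcnc1 at 36.3 and 52.4 against 17.5 to 25.6. Gad1, which makes GABA, was at 36.0 and 68.7 against 48.6 to 198 elsewhere, and Kcnc2 at 6.18 and 4.64 within a range of 2.93 to 12.7. The part of these cell types in the values of the tissue-specific copies was not tested.

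Among the annotated pseudogenes, Ndufb4c varied from 14.9 in C_W64 and 16 in MS_O46 to 44.4 in MS_W75, while Ndufb4 stayed between 22.2 and 28.6. Ndufs6b varied from 1.15 in MS_O46 to 3.88 in C_O72. In both the spread ran within groups, with 16, 33.2 and 40.5 for Ndufb4c in the 3 MS_O mice.

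None of the 13 mtDNA-encoded subunits passed the adjusted or the unadjusted threshold in any comparison in limma. Their log2FC was below 0 for all 13 in C_O vs. C_W (median -0.22) and in MS_O vs. MS_W (median -0.15), and above 0 for all 13 in MS_O vs. C_O (median 0.18). Of all tested genes, 50.4%, 46.3% and 56.7% were above 0 in these comparisons. The 13 largely moved together, so their count is not a count of separate results. Their library scores were 0.23, -0.33 and 0.06 in MS_O13, MS_O46 and MS_O78. In MS_W31, MS_W75 and MS_W95 the scores were 0.09, 0.28 and 0.11, and in MS_O vs. MS_W the groups overlapped for all 13. With C_O lower, the groups did not overlap for 7 of the 13 in C_O vs. C_W (5.34% of all tested genes), and without C_O72 and MS_W95 the median was -0.22 with all 13 below 0. The smallest p was that of mt-Atp6, a membrane subunit of complex V, with an FPKM of 938, 834 and 840 in C_O and 1079, 977 and 1186 in C_W. All C_O mice were below all C_W mice, and the log2FC was -0.31 (limma, unadjusted p = 0.0907, adjusted p = 0.908).

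The rule leaves out 6 further genes of nuclear subunits and cytochrome c, among them Ndufb1-ps through its "-ps". Cox4i1, the main copy of a complex IV subunit, had a mean FPKM of 219 against 1.71 for Cox4i2, its lung copy. Cyc1, the cytochrome of complex III, was at 71.1, cytochrome c (Cycs) at 43.7, and Ndufb1-ps at 37.4. Ndufab1, an acyl carrier of complex I, was at 6.64. No one of the 6 had an unadjusted p under 0.05 in limma, with all 12 libraries or with 10. Atpif1, the inhibitor of complex V, ranged from 68.0 to 87.6, highest in C_O72.

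None of the 47 assembly factors passed the adjusted threshold in limma in any comparison. In MS_W vs. C_W 1 was higher at an unadjusted p under 0.05 (6.71% of all tested genes). In MS_O vs. C_O 3 were higher (6.69% of all tested genes), among them Sdhaf1, an assembly factor of complex II, with a log2FC of 0.44 (adjusted p = 0.479) and Bcs1l, of complex III, with 0.23 (adjusted p = 0.517). In C_O vs. C_W 2 were lower (2.04% of all tested genes), among them Ndufaf4 of complex I at -1.16 (limma, adjusted p = 0.908). Without C_O72 and MS_W95, 8 of the 47 were higher at that p in MS_O vs. C_O (9.62% of all tested genes). There 6 were lower in C_O vs. C_W (2.22%) and 1 was higher in MS_W vs. C_W (9.66%). In MS_O vs. MS_W 1 was higher (3.28%) and 3 were lower (5.27%), and none of the 47 passed the adjusted threshold in these fits. Of 13 regulators of mitochondrial genes, 1 was higher in MS_W vs. C_W at an unadjusted p under 0.05 (6.71% of all tested genes), Gabpa, a subunit of the Ets factor GABP, with a log2FC of 0.28 (limma, adjusted p = 0.468), and none was higher without C_O72 and MS_W95 (9.66%). With all 12 libraries, none of the 16 citric acid cycle genes or 7 membrane carriers had an unadjusted p under 0.05 in any pairwise comparison. In the 10 libraries, 1 citric acid cycle gene and 1 carrier were higher in MS_W vs. C_W (9.66% of all tested genes) and 2 of each in MS_O vs. C_O (9.62%), and none passed the adjusted threshold in limma.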

How the data were processed

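RNA from the brains of 12 mice was sequenced, 3 per group, as grouped by GEO's labels, with 1 library per mouse. The submitters' processing notes name cutadapt 1.9, HISAT2 2.0.4, StringTie 1.3.4d, edgeR and DESeq2 without versions, and genome mm10. The authors deposited an FPKM value and an estimated count for each gene and library, with 0.0001 as the FPKM of a gene without signal. The deposited estimated counts were close to FPKM times exon length times a factor per library, and how they were derived was not given in the sources used here. Handling of reads with several alignments was not given there either.

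Values of log2(FPKM + 1) were compared with limma 3.58.1, using its trended empirical Bayes step under R 4.3.3, in all 4 groups at once. Genes had to reach a mean FPKM of 0.1. The estimated counts, rounded to whole numbers, were tested with edgeR 4.0.16 (its quasi-likelihood test) and with DESeq2 1.42.0 as alternatives, as were pseudocounts of 0.1 and 0.01, other filters, scalings and samples. The limma fit was checked on simulated data for MS_W vs. C_W only, with genes drawn independently and at the same spread in each library. The edgeR and DESeq2 tests were not checked in this way. Python 3.11.15 (pandas 2.3.3, matplotlib 3.10.9) wrote the tables and drew the figures. Gene coordinates are those of the table, and 70 members have the same start and end in GENCODE M21, from which transcript lengths were taken. Promoter sequences are from RefSeq.

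The members, gene lists and tests were chosen with earlier results of these data known. Named members are the 2 with the highest FPKM per complex, those with an unadjusted p under 0.05 (up to 4 per direction and comparison), the 6 with the largest SD, the isoform families, complex II, the core of complex I, Atpif1, the subunits that the rule leaves out, and up to 3 genes with the smallest p in each other list. The values of 1 member are not reported here. Others were chosen after their values were seen. P-values in limma rest on the spread between mice within groups of 3, pooled over the 4 groups and moderated across genes by the empirical Bayes step. With all 12 libraries, the spread of C_O72 therefore also enters comparisons without C_O, and that of MS_W95 comparisons without MS_W.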

Additional observations from a re-analysis of the deposited data

How the results depend on the processing

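The number of mice, 3 per group, limited the precision. Without C_O72 and MS_W95, the median log2FC of the members was 0.189 in MS_O vs. C_O, -0.0386 in C_O vs. C_W and 0.0836 in the interaction, and 1 member instead of 0 passed in MS_W vs. C_W. Without C_O72 alone these medians were 0.189, -0.0386 and 0.0243. DESeq2 on the estimated counts called 1 member in MS_O vs. C_O, 1 in C_O vs. C_W and 1 in the interaction, each time Ndufa12, and the cause was not tested. Leaving out each library in turn gave medians of 0.09 to 0.23 in MS_W vs. C_W, -0.13 to 0.19 in MS_O vs. C_O, -0.04 to 0.30 in C_O vs. C_W, -0.06 to 0.05 in MS_O vs. MS_W and -0.31 to 0.02 in the interaction, with no member called in any of these fits. No paired analysis was possible because the mouse numbers in the labels are not shared between groups.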
